A study of Mus musculus with 8 samples.

Results

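Sterol and fatty acid synthesis genes were followed in C2C12 cells, a mouse myoblast line, after silencing of the long non-coding RNA Pvt1. The group was a list of 36 genes, and its members were the array spots, controls excluded, whose gene name in the array design equalled a listed symbol. Of the 36 genes, 35 had such a spot, and Acat2 had none under that name. They were covered by 78 of 59305 spots, each a different probe, on an array with 37074 distinct gene names. After the filter on dim spots, 63 of these probes in 34 genes could be tested, and Abca1 was the gene with probes but no test.

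RNA levels came from 8 Agilent arrays read in a single colour, each carrying Cy3-labelled RNA of 1 culture of proliferating C2C12 cells at passage 10. In the silenced group (n = 4) the cells received Lipofectamine 2000 and antisense LNA GapmeRs against Pvt1, and in the negative control group (n = 4) Lipofectamine 2000 and control GapmeRs. A GapmeR is a short antisense oligonucleotide that directs cleavage of the RNA it pairs with. The labels name 2 Pvt1 GapmeRs without saying whether they were mixed, and both groups come from a single cell line, so every value below describes that line under transfection. The GapmeRs that define the silenced group are shown here, 5′ to 3′ and with no part in capitals, as they are the only difference between groups that the labels give.
Pvt1_1: accgtagtagagttaa
Pvt1_3: agtcaacgcttcacat

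The level of Pvt1 was examined first. Its brightest probe (NR_003368, chromosome 15, 62081020 to 62081079, build mm9) read 9.65, 9.79, 10.31 and 9.70 on control arrays 1 to 4 and 7.09, 6.69, 7.85 and 6.39 on silenced arrays 1 to 4, in log2 units of the processed signal. The groups did not overlap, and the silenced arrays kept 13.8% of the control level (change -2.86, SE 0.32, limma adjusted p 0.000682). Silenced replicate 4 was the dimmest array, with 51.6% of its spots positive and significant against 58.8% to 62.5% on the other 7. Of 6 myoblast markers, 5 were well above background on all arrays of both groups, and Myf5, the sixth, on none. Their summed level lay between 16.73 and 17.05 (log2) on the controls and between 16.14 and 16.52 after silencing, with no overlap, and Myod1 (-1.95), Des (-1.35) and Cdh15 (-0.86) were called lower by limma. Vim (-0.17), Pax7 (0.02) and the dim Myf5 (0.94) were not called. Among markers of other cells, 1 of 13 liver genes was well above background on all 4 control arrays and 5 of 13 on all 4 silenced arrays. The summed level of the liver list lay between 10.09 and 10.91 (log2) on the controls and between 11.998 and 12.36 after silencing. Alb, Fgb, Ahsg and Mup1, which encode proteins that liver secretes, were well above background on 0 of 4 control and 4 of 4 silenced arrays, and Cyp2e1 and Serpina3k were called higher. In the same list Gnmt was called lower (-0.70, limma adjusted p 0.0403), and 6 of the 13 genes were well above background on no silenced array. Of 6 adipocyte genes, 2 were well above background on all control and 3 on all silenced arrays, with sums of 8.57 to 9.12 and 8.92 to 9.64. In the list of differentiated muscle, 3 of 5 genes were above background on all control and 4 on all silenced arrays, and its sum was 11.52 to 11.92 in controls and 10.34 to 10.80 after silencing. Of its genes Acta1 was called lower (-1.88), and Myog, Myh3 and Tnnt3 were not called. In such bulk RNA, fewer cells of a type and less RNA per cell cannot be told apart.

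Cells make cholesterol from acetyl-CoA by way of mevalonate and squalene, and make fatty acids from acetyl-CoA by way of malonyl-CoA. Both routes are controlled by the sterol regulatory element binding proteins, transcription factors encoded by Srebf1 and Srebf2. They are held in the endoplasmic reticulum with the escort protein Scap by the Insig proteins while sterols are plentiful, and are cut and released to the nucleus when sterols fall. Srebf2 acts mainly on cholesterol genes and Srebf1 mainly on fatty acid genes. Proliferating cells need both products for new membranes.

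After silencing, 7 of the 34 tested genes differed from control at a limma adjusted p under 0.05, which is 20.6%, against 23.2% of all 28649 tested probes. Each gene was represented by its brightest tested probe. The share of called genes was thus close to that over the whole array. Tm7sf2, Hsd17b7, Lpin1 and Acacb were higher (11.8% of the members, against 4.79% of all probes), and Srebf2, Mvd and Dhcr7 were lower (8.82%, against 18.4%). The other 27 genes were not called. The median change of the 34 genes was 0.08 (log2) and that of all tested probes -0.19, and 25 of the 34 genes lay above the latter. These figures set the brightest probe of each member beside every tested probe of the array, which is an unlike choice. Over all 63 tested member probes the median change was -0.16. In 10 of the 34 genes the 4 silenced values did not overlap the 4 control values, a share to be read beside 28.5% of the probes with values on all 8 arrays.

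The balance of directions depended on the normalization. Under cyclic loess, which brings the median change of all probes to 0.02, 12 of the 34 genes were higher and 4 lower, with a median of 0.30, while 18.9% of all probes were higher and 18.4% lower. All 7 genes called above were among these 16. The genes added were Scap, Mvk, Lss, Cyp51, Ebp, Scd2, Acly and Acss2, each higher, and Npc2, which was lower. These too are calls at the brightest probe, and another probe of Lss and of Acss2 was called lower under cyclic loess. Without silenced replicate 4, 7 genes were higher and 4 lower, against 13.0% and 18.1% of all probes (31.1% in either direction).

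**Figure D1:**
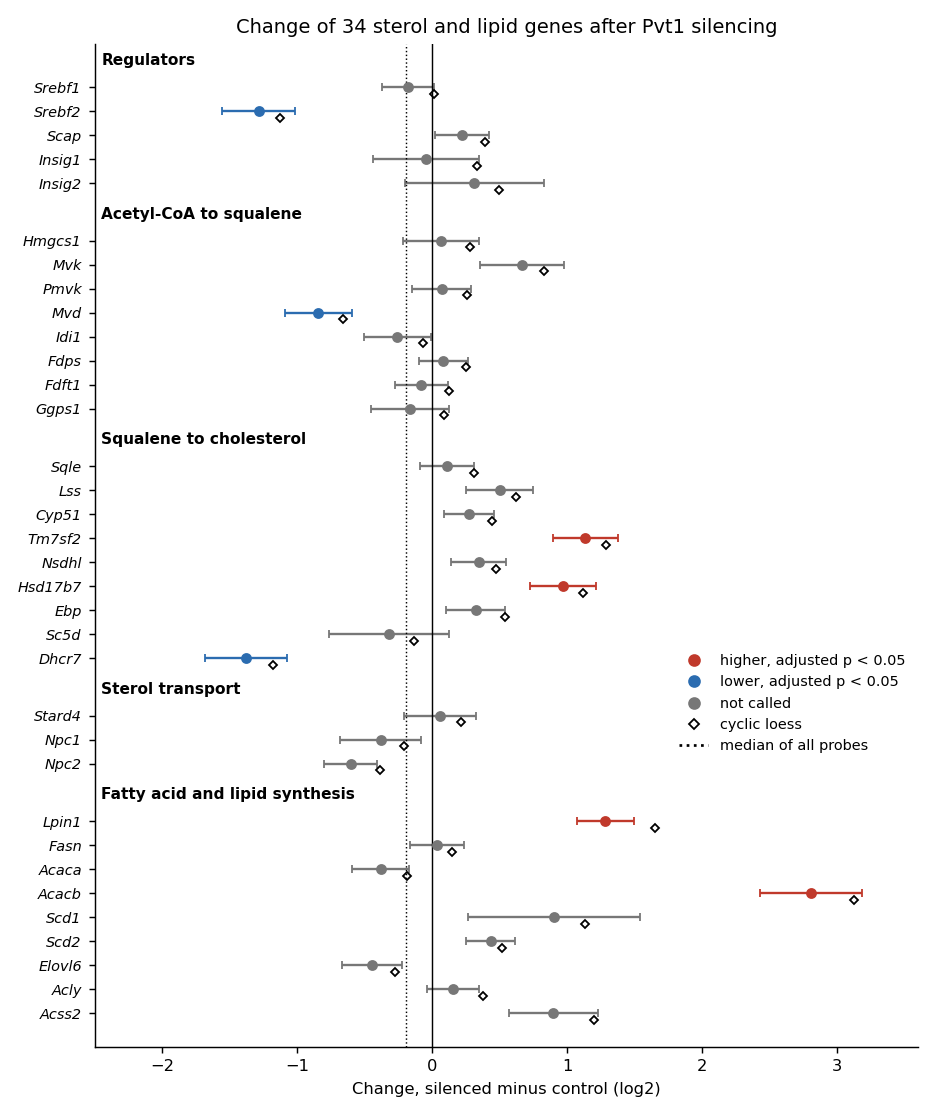
Change of the 34 tested genes (silenced minus control, log2), grouped by role, with circles and bars for the estimate and its standard error and open diamonds for the value under cyclic loess. Acacb, a fitted value from controls not well above background, lies farthest to the right at 2.81 and Dhcr7 farthest to the left at -1.38, and 25 of the 34 circles lie to the right of the dotted median of all probes at -0.19. The circles are brightest probes of each gene, whereas the dotted line is taken over every tested probe.

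Among the regulators, Srebf2 was lower (against 18.4% of all probes) and none was higher (against 4.79% of all probes). The other 4 were not called by limma, nor did any of these 4 pass an unadjusted p under 0.05 or the methods' t-test. At an unadjusted p under 0.05, 9.34% of all probes were higher and 27.0% lower, and by the methods' t-test after adjustment 1.98% and 9.96%, which are the shares to read beside such counts in each branch. Without adjustment the methods' t-test called 7 of the 34 genes higher and 4 lower, against 7.79% and 23.7% of all probes. Srebf2 (ENSMUST00000023100, chromosome 15, 82035495 to 82035554) read 12.43, 12.75, 12.21 and 12.56 on the control arrays and 11.44, 11.70, 11.11 and 10.56 on the silenced arrays. Every silenced array lay below every control array, with 41.0% of the control level left (change -1.29, SE 0.27, limma adjusted p 0.00892). A second Srebf2 probe, upstream of it on the genome (82034765 to 82034824) fell by 1.28 (SE 0.22, limma adjusted p 0.00355), again with no overlap.

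Srebf1 (chromosome 11, 60013214 to 60013273), the factor nearer to fatty acid synthesis, read 13.11, 13.15, 13.45 and 13.43 in controls and 13.26, 13.27, 13.03 and 12.88 after silencing. The groups overlapped, and the change of -0.18 (SE 0.20) was not called and was 0.02 under cyclic loess. The escort protein gene Scap (chromosome 9, 110287280 to 110287339) read 12.04, 12.37, 12.48 and 12.28 against 12.47, 12.54, 12.78 and 12.25. Its change of 0.22 (SE 0.20) was not called, whereas cyclic loess gave 0.39 (limma adjusted p 0.0402).

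The Insig genes encode the proteins that retain Scap. For Insig1 (chromosome 5, 28404246 to 28404305) control replicate 3 stood low, at 6.71 against 7.91, 8.53 and 8.49 on the other controls, and the silenced arrays read 7.83, 7.97, 8.17 and 7.47. The change of -0.05 (SE 0.39) turned to 0.34 under cyclic loess, and neither was called. Insig2 (chromosome 1, 123201085 to 123201144) read 11.18, 11.42, 11.62 and 11.33 in controls and 12.16, 12.10, 12.64 and 9.90 after silencing. Silenced replicates 1 to 3 lay above every control and replicate 4 below every control, so the change of 0.31 had an SE of 0.51. Without silenced replicate 4 it was 0.91 and was called. Another Insig2 probe (123201071 to 123201130), which overlaps the first on the genome, was higher by 0.97 (SE 0.27, limma adjusted p 0.0272) with no overlap between groups.

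The promoters of 4 genes are shown next because they carry, or lack, the sites that the sterol-regulated factors and their partners are known to use, beside genes that fell (Srebf2, Dhcr7), rose (Tm7sf2) or were not called by the brightest probe (Hmgcs1). Each is the stretch of 150 bases before a RefSeq start site on build GRCm38.p6, 5′ to 3′ on the gene's strand. Capitals mark, on either strand, the inverted CCAAT box ATTGG, the GC box GGGCGG and the sterol regulatory element TCACNCCAC.
Srebf2, chr15:82147119-82147268, plus strand: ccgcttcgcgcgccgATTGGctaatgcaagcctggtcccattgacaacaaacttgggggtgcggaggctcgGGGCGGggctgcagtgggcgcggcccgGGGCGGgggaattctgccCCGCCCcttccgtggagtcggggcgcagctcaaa
Dhcr7, the start farthest downstream of 3, chr7:143830064-143830213, plus strand: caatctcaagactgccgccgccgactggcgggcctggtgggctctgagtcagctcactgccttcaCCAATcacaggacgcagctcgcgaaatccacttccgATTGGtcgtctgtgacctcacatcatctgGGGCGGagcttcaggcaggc
Tm7sf2, chr19:6067851-6068000, minus strand: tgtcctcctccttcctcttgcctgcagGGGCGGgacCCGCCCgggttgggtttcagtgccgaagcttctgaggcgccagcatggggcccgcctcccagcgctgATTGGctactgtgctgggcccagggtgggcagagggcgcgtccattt
Hmgcs1, chr13:119690201-119690350, plus strand: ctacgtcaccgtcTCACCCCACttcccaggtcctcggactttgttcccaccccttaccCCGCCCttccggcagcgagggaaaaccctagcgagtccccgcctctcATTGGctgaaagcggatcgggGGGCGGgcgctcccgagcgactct

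Promoters of 29 members were in the RefSeq table, 37 in all, each from 250 bases before to 50 after the start. The sterol regulatory element, searched in both strands, was in 1 of the 37 (2.70%, Hmgcs1), and 1.24% of all 32851 promoters held it. The inverted CCAAT box was in 64.9%, against 37.4% of all promoters and 38.2% of those of coding genes. The GC box was in 70.3%, against 35.7% and 46.2%. The E-box CACGTG was in 18.9%, against 7.15%. None of these motifs contains another, and a match is a description of the letters only. Srebf2 held 1 inverted CCAAT box and 3 GC boxes in the stretch shown, Dhcr7 2 and 1, and Tm7sf2 1 and 2. The Dhcr7 start shown held the most of these motifs among its 3, and the others held no inverted CCAAT box, with 1 and 0 GC boxes. Fdps, Fdft1, Sqle, Stard4, Npc1, Scd1 and Scd2 were not matched.

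Of the 8 tested genes between acetyl-CoA and squalene, 1 was lower (against 18.4% of all probes) and none higher (against 4.79% of all probes), with a median change of -0.0093. At an unadjusted p under 0.05 none was higher and 1 lower, and the methods' t-test called none in either direction. Mvd, which encodes the decarboxylase that makes isopentenyl diphosphate (chromosome 8, 124957750 to 124957809), read 10.45, 10.54, 11.11 and 10.71 in controls and 10.08, 10.21, 9.76 and 9.38 after silencing. All silenced values were below all control values, at 55.7% of control (change -0.84, SE 0.25, limma adjusted p 0.0358). This call was lost with the slide row as a block (-0.77, limma adjusted p 0.148) and under several of the settings given in the closing section.

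Hmgcs1, the synthase that feeds the mevalonate pathway, was not called by its bright probe (13_random, 114793 to 114852), which read 13.56, 13.82, 13.15 and 13.91 in controls and 13.76, 13.79, 14.13 and 13.02 after silencing (change 0.06, SE 0.28). A dim Hmgcs1 probe from another transcript record (AK078743, 13_random, 121437 to 121496) read 7.24, 7.77, 6.77 and 7.51 in controls while none of its silenced values stood well above background. The controls exceeded them at least 2.23-fold (limma adjusted p 0.000799). Such a bound sets the mean of the bright group against a floor for the dim group, which is the faintest signal well above background on that array or the probe's value if that was larger. The 2 probes of Hmgcs1 therefore gave different answers.

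Mvk, the mevalonate kinase, had a change of 0.67 (SE 0.31) that was not called, but was called under cyclic loess (0.83, limma adjusted p 0.0326). On control replicate 3 it read 12.79, against 11.98 to 12.05 on the other controls. Pmvk, the next kinase, changed by 0.07 (SE 0.22), Idi1, the isomerase, by -0.26 (SE 0.25), and Fdps, which makes farnesyl diphosphate, by 0.08 (SE 0.18). Fdft1, the squalene synthase at the branch to sterols, changed by -0.08 (SE 0.20), while its second probe, nearer the 5′ end, changed by -1.30 (SE 0.53, limma adjusted p 0.107) with no overlap. Ggps1, which makes geranylgeranyl diphosphate for protein prenylation, changed by -0.16 (SE 0.29), and its 6 probes ranged from -0.25 to 0.55 with none called. At the brightest probe of these genes the silenced values overlapped the control values.

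In the 9 genes from squalene to cholesterol, 2 were higher (against 4.79% of all probes) and 1 lower (against 18.4% of all probes), and 7 of 9 lay above the median change of all probes. At an unadjusted p under 0.05 the counts were again 2 and 1, and the methods' t-test called 1 higher and none lower, without Hsd17b7 and Dhcr7. Sqle, the squalene epoxidase at the first committed oxygen step (chromosome 15, 59162688 to 59162747), read 14.15, 14.37, 14.44 and 14.39 in controls and 14.49, 14.46, 14.72 and 14.12 after silencing. Silenced replicates 1 to 3 were above every control and replicate 4 below, and the change of 0.11 (SE 0.20) was not called.

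Tm7sf2, a sterol reductase that acts just after lanosterol demethylation (NM_028454, chromosome 19, 6062882 to 6062941), read 9.93, 9.94, 10.30 and 10.25 in controls and 11.40, 11.07, 11.69 and 10.80 after silencing. All silenced arrays were above all controls, a rise to 2.20-fold (change 1.13, SE 0.24, limma adjusted p 0.00892). A second Tm7sf2 probe nearer the 5′ end of the same transcript (6063541 to 6063600) changed by -0.07 (SE 0.26). The mean of both probes changed by 0.53 and was not called, so the rise rests on the 3′ probe.

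Hsd17b7, the sterol ketone reductase of the pathway (NM_010476, chromosome 1, 171882591 to 171882650), read 10.31, 10.89, 10.54 and 10.66 in controls and 11.54, 11.60, 12.05 and 11.11 after silencing. It rose to 1.96-fold with no overlap (change 0.97, SE 0.24, limma adjusted p 0.0193). Its 5′ probe (171883182 to 171883241) changed by -0.25 (SE 0.25), and the mean of its 3 tested probes, each first centred on the middle of its group means, by 0.41 (limma adjusted p 0.399). Blocking on slide row gave 0.94, which was no longer called (limma adjusted p 0.0871).

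Dhcr7, which catalyses the last step to cholesterol (NM_007856, chromosome 7, 151033874 to 151033933), read 11.38, 11.30, 10.37 and 11.47 in controls and 9.96, 10.22, 9.44 and 9.39 after silencing. The lowest control, replicate 3, was still above the highest silenced array. The level after silencing was 38.5% of control (change -1.38, SE 0.30, limma adjusted p 0.011), the largest fall among the 34 representing probes. Dhcr7 had a single probe.

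The remaining genes of this stretch were not called by their brightest probe. Lss, the cyclase that makes lanosterol, changed by 0.50 (SE 0.25) at its brightest probe, by -0.18 at a probe 3′ of it, and was lower by 1.33 (SE 0.21, limma adjusted p 0.00249) at a 5′ probe with no overlap between groups. Cyp51, the lanosterol demethylase, changed by 0.27 (SE 0.18). Nsdhl, a sterol dehydrogenase of the demethylation complex, changed by 0.34 (SE 0.20), while a probe from another record (AK156993) fell by 1.20 (SE 0.24, limma adjusted p 0.00762). Ebp, the sterol isomerase, changed by 0.32 (SE 0.22), and Sc5d, the desaturase before Dhcr7, by -0.32 (SE 0.45), with a second Sc5d probe lower by 0.72 (SE 0.23, limma adjusted p 0.045).

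None of the 3 tested sterol transport genes was called by limma, against 4.79% of all probes higher and 18.4% lower. At an unadjusted p under 0.05, and by the methods' t-test, Npc2 was lower. Npc2, which hands cholesterol to Npc1 inside lysosomes, changed by -0.60 (SE 0.20) with no overlap between groups and missed the threshold (limma adjusted p 0.0517). Npc1 changed by -0.38 (SE 0.30) and Stard4, a cytosolic sterol carrier, by 0.06 (SE 0.27). Abca1, the exporter of cholesterol to lipoproteins, had too few values for a test: its 3′ probe (chromosome 4, 53043944 to 53044003) was measured on 1 control array at 6.49 and on the silenced arrays at 7.45, 7.37, 7.92 and 6.34.

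**Figure D2:**
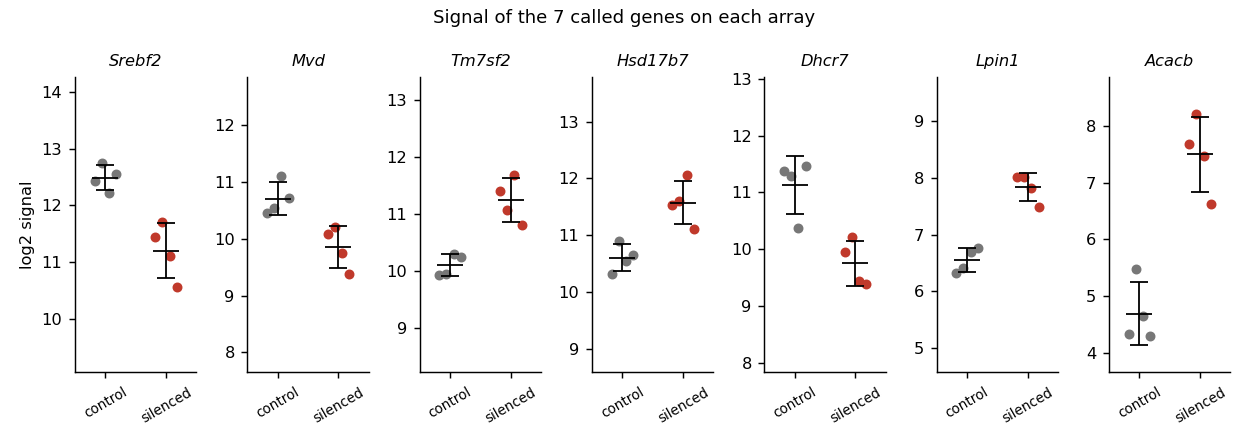
Log2 signal of the 7 called genes on each of the 4 control (grey) and 4 silenced (red) arrays, with the mean and SD in black and a y axis of the same span in every panel. The groups do not overlap in any panel, and the control values of Acacb, 4.30 to 5.48, are not well above background.

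In the fatty acid and lipid branch, 2 of 9 genes were higher at their brightest probe (against 4.79% of all probes) and none lower (against 18.4% of all probes), with a median change of 0.44. At an unadjusted p under 0.05 the counts were 4 and 0, and by the methods' t-test 2 and 0. Other probes of Acaca and Acss2 were called lower, as given below. Acacb, the acetyl-CoA carboxylase tied to mitochondria, whose malonyl-CoA restrains fatty acid import (NM_133904, chromosome 5, 114667674 to 114667733), read 4.34, 5.48, 4.64 and 4.30 in controls and 7.68, 8.21, 7.47 and 6.62 after silencing. As no control value stood well above background, silenced cells exceeded controls at least 2.71-fold (fitted change 2.81, SE 0.38, limma adjusted p 0.0013). Of the other probes of this transcript, a 3′ probe changed by 0.84 (SE 0.48) and was not called. The called probe was the brightest through its silenced values, since on the control arrays the 3′ probe read higher, and with genes represented by their brightest probe in controls Acacb was not called (limma adjusted p 0.243). Because the 2 probes differ, the sequence of the called one is given, 5′ to 3′ with no part in capitals.
Acacb probe, chr5:114667674-114667733, build mm9, plus strand: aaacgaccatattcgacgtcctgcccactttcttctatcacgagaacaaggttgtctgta

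Lpin1, a phosphatidate phosphatase that makes diacylglycerol for lipid synthesis (NM_001130412, chromosome 12, 16543023 to 16543082), read 6.32, 6.42, 6.70 and 6.77 in controls and 8.02, 8.02, 7.81 and 7.49 after silencing. It rose to 2.43-fold with no overlap (change 1.28, SE 0.21, limma adjusted p 0.00313). A second probe, with no control value well above background, was at least 1.79-fold higher after silencing (limma adjusted p 0.012). Both probes of Lpin1 were thus called in the same direction, as were both of Srebf2.

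The liver marker sums were higher on the 4 silenced arrays, as were Acacb and Lpin1. The adipocyte sums overlapped between the groups, with Plin1 well above background on 1 of 4 control and 4 of 4 silenced arrays, Lep called lower (-0.92, limma adjusted p 0.0135) and Adipoq not well above background on any array. The part of RNA from either cell type in these changes was not tested.

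Fasn, the fatty acid synthase (chromosome 11, 120668460 to 120668519), read 15.12, 15.37, 15.66 and 15.31 in controls and 15.35, 15.34, 15.66 and 15.26 after silencing, and its change of 0.04 (SE 0.20) was within the spread of the controls. Acaca, the cytosolic carboxylase that feeds Fasn (chromosome 11, 84215093 to 84215152), read 13.11, 13.30, 13.78 and 13.17 against 12.95, 13.04, 13.02 and 12.82. Its groups did not overlap, but the change of -0.38 (SE 0.21) was not called. An Acaca probe 734 bases nearer the 5′ end of the transcript (84214359 to 84214418) read 10.17, 10.53, 10.54 and 10.35 in controls and 8.89, 9.36, 8.62 and 6.33 after silencing, and was lower by 2.10 (SE 0.56, limma adjusted p 0.0243).

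Scd1, the stearoyl-CoA desaturase (chromosome 19, 44469387 to 44469446), read 12.56, 12.93, 9.69 and 12.79 in controls and 12.84, 13.22, 12.60 and 12.91 after silencing. Control replicate 3 stood far below the other controls, and the change of 0.90 had an SE of 0.63. Without that array it was 0.14. Scd2, the related desaturase, changed by 0.44 (SE 0.18) with no overlap and was called under cyclic loess (0.52, limma adjusted p 0.00922). Acss2, which makes acetyl-CoA from acetate, changed by 0.90 (SE 0.33, limma adjusted p 0.0775), while its 5′ probe, well above background on 1 of the 4 silenced arrays, was called lower (fitted change -1.57, SE 0.43, limma adjusted p 0.0276). Acly, the citrate lyase, changed by 0.15 (SE 0.19) and Elovl6, an elongase of long chains, by -0.44 (SE 0.22).

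**Figure D3:**
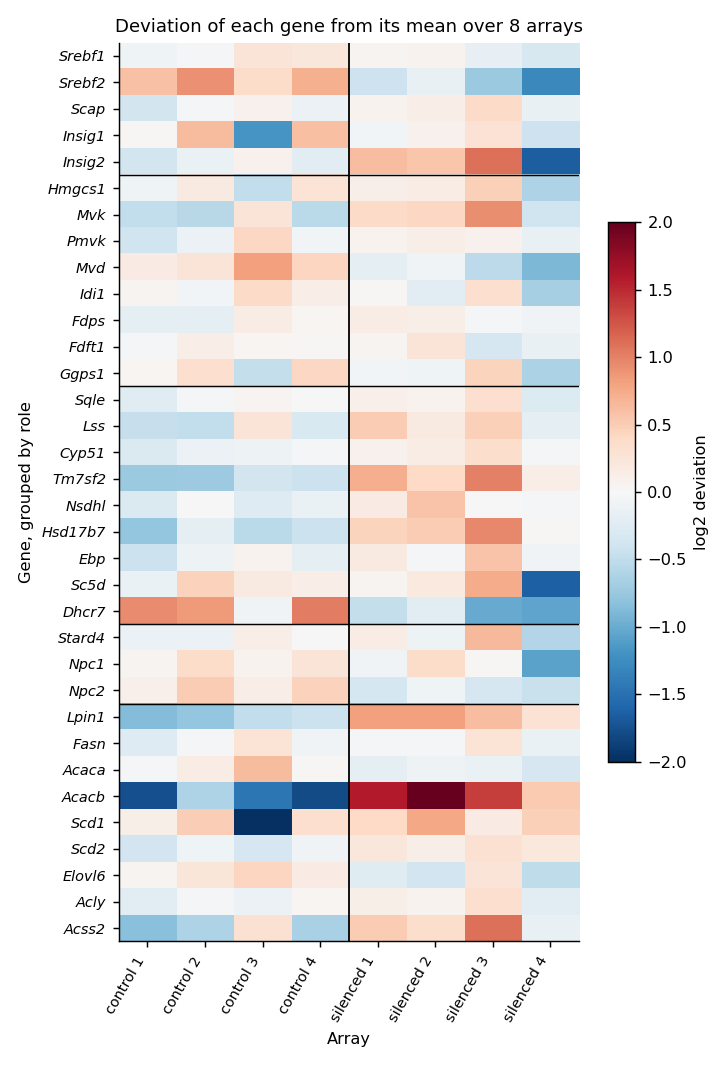
Deviation of each of the 34 genes (rows, grouped by role) from its own mean over the 8 arrays (columns), in log2 units, with values beyond 2 drawn at the end of the scale. On silenced replicate 4 the column is bluer, with 6 of 34 genes above their own mean against 23 to 25 on silenced replicates 1 to 3, and Scd1 and Insig1 stand low on control replicate 3.

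The genes also varied from array to array. On silenced replicates 1 to 3, 24, 23 and 25 of the 34 genes lay above their own mean over the 8 arrays. On silenced replicate 4 the number was 6, and the median deviation of the genes there was -0.24, beside -0.65 for all probes. On control arrays 1 to 4 it was 10, 13, 21 and 17. Under cyclic loess the median deviation of the genes was between -0.19 and -0.03 on the control arrays and between 0.09 and 0.29 on the silenced arrays.

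Within a transcript the answer depended on the place of the probe. For 15 member transcripts with at least 2 tested probes on the same record, the most 3′ probe had the higher change in 13 (86.7%), with a median difference of 1.15 (log2) between the ends. Over all transcripts with such probes it was higher in 79.5% of 4122 (median 0.58), and in 81.0% of 3688 at the distances of the members, 128 to 4641 bases (median 0.63). Under cyclic loess it was again 13 of 15 in the members, with a median of 1.02. The exceptions were Acacb and 1 of the 2 Ggps1 records.

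**Figure D4:**
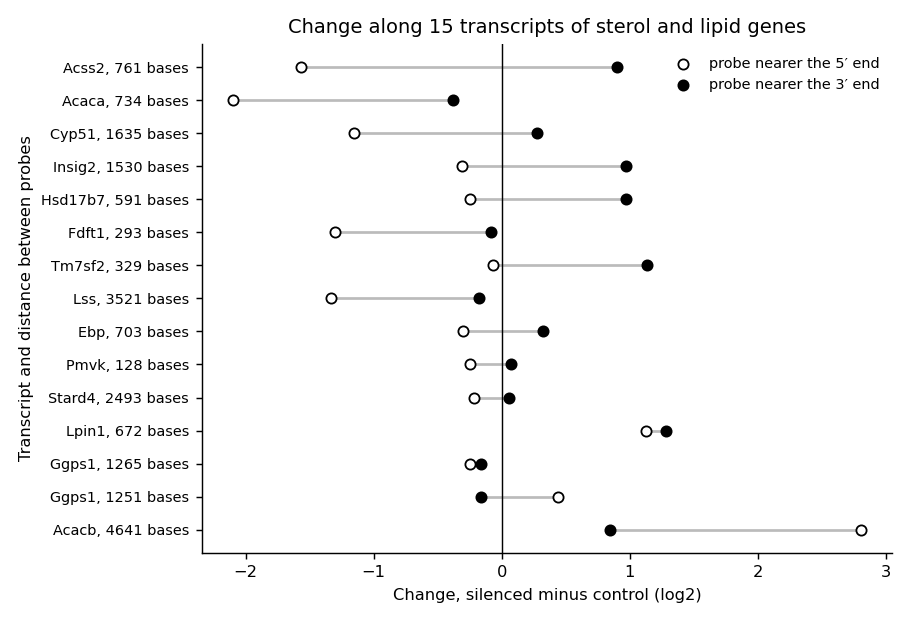
Change (silenced minus control, log2) of the probe nearer the 5′ end (open circles) and of the probe nearer the 3′ end (filled circles) of 15 member transcripts, with the distance between them. Filled circles lie to the right in 13 of 15 rows, from 0.09 for 1 of the Ggps1 records to 2.46 for Acss2, whose 5′ probe was well above background on 1 of 4 silenced arrays.

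The change at the 3′ probe exceeded that at the 5′ probe by 1.22 in Hsd17b7, by 1.20 in Tm7sf2 and by 1.43 in Cyp51. Under cyclic loess these differences of changes were 1.06, 1.02 and 1.23. The 5′ probe of Cyp51 is shown as an example of a 5′ probe that changed by -1.16 (SE 0.44, limma adjusted p 0.0851) where the 3′ probe changed by 0.27; it crosses an exon junction, since its 60 bases span more than that on the genome.
Cyp51 probe, chr5:4092033-4092439, build mm9, minus strand: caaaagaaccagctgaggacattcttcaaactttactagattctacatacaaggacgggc

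Counted by probe, 6 of the 63 tested member probes were higher (9.52%, against 4.79% of all probes) and 10 lower (15.9%, against 18.4%), with a median change of -0.16 beside -0.19 for all probes. Of the 21 genes with several tested probes, 4 had 1 probe called higher (Acacb, Hsd17b7, Insig2 and Tm7sf2) and 6 had 1 called lower (Acaca, Acss2, Hmgcs1, Lss, Nsdhl and Sc5d). Lpin1 had 2 probes called higher and Srebf2 had 2 called lower. No gene had called probes in both directions, and 9 had none called. Under cyclic loess, Lss (0.62 and -1.11) and Acss2 (1.20 and -1.25) each had 1 probe called higher and 1 called lower.

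The upper row of the slide held 3 control arrays and 1 silenced array, and the lower row 1 and 3. Within these rows Srebf2 changed by -1.03 and -1.44, Mvd by -0.61 and -0.93, Tm7sf2 by 1.34 and 0.94, and Hsd17b7 by 0.95 and 0.93. Dhcr7 changed by -1.06 and -1.78, Lpin1 by 1.54 and 1.00, and Acacb by 2.85 and 3.14. With the row as a block 3 genes were higher and 2 lower, against 1.86% and 8.98% of all probes (10.8% in either direction), and Hsd17b7 and Mvd were not among them.

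A further list of 32 genes of sterol uptake, SREBP processing, fatty acid desaturation and lipid assembly was read for comparison. Of these, 30 were tested, 3 were higher (10.0%, against 4.79% of all probes) and 2 lower (6.67%, against 18.4%), with a median change of 0.04. Under cyclic loess 8 were higher and 1 lower, beside 18.9% and 18.4% of all probes. The higher genes were Abcg1, a sterol exporter (2.09, SE 0.47, limma adjusted p 0.012), Mylip, a ligase that marks the low density lipoprotein receptor for decay (0.96, SE 0.29), and Mlxipl, a carbohydrate-responsive factor (0.84, SE 0.25). Counted by probe, 3 of the 60 tested probes of this list were higher (5.00%) and 16 lower (26.7%), with a median change of -0.20. Another probe of the same Mlxipl transcript (chromosome 5, 135613705 to 135613764) was called in the opposite direction, with controls at least 2.31-fold above silenced cells (limma adjusted p 0.0029). The lower genes were Fads1, a fatty acid desaturase (-0.92, SE 0.26), and Slc25a1, the mitochondrial citrate carrier (-0.66, SE 0.21). The Fads1 groups overlapped, and another Fads1 probe changed by 0.25 (SE 0.32). That probe was not called, but was called higher under cyclic loess (0.62, limma adjusted p 0.0217). The brightest Slc25a1 probe was not called under cyclic loess (limma adjusted p 0.0522), while its second probe was called lower under both (-1.27 as reported). Abcg1 passed background clearly on 2 of 4 control arrays and on all silenced arrays.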

How the data were processed

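Total RNA was labelled with Cy3 by the Low Input Quick Amp kit and hybridised to 8 arrays on 1 slide, read in 1 scan. The deposited scanner output gives linear intensity per spot, and per the file headers Feature Extraction 12.0.0.7 made the processed signal by subtracting background (the labels name 10.7.3.1). A table of quantile-normalized intensity that the authors deposited was an alternative, and the deposited flags (other units, 0 or 1) mark signal above background.

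Log2 values were computed here from the intensities the authors deposited. Spots not positive and significant were set to missing, as in the study's methods. Control and outlier spots were left out, arrays were quantile normalized, and spots of 1 probe were averaged. Probes holding 3 or more of 4 values per group (28649 of 56605) were fitted with group as the only term in limma 3.58.1 (R 4.3.3), with Benjamini-Hochberg adjustment over all of them at 0.05. The methods name no such model. The t-test for unequal variances that the study's supplement states for these arrays was an alternative, called the methods' t-test, here with and without Benjamini-Hochberg adjustment.

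A gene was represented by its brightest tested probe. Values were given on every array for called genes, regulators, Hmgcs1, Sqle, Fasn, Acaca and Scd1, and for others as changes. Members and lists were chosen with earlier results of these data known. Coordinates of probes are those of the files (mm9), and their place in exons or UTRs was not analysed here. Of 78 member probes, 60 had an accession in the RefSeq gene table (GRCm38.p6), all with the same symbol. Replicates are separate cultures per the labels. The number of arrays limits the precision. In simulated data (28649 probes), 100 probes were moved by 2 log2 and 100 by 1 log2. The fit found 57.0% of the former and 10.0% of the latter. It called 68 probes there, against 6642 in the data, so these shares do not give the recovery of the reported fit. Alternatives are in the closing section. Figures were drawn with matplotlib 3.10.9.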

Additional observations from a re-analysis of the deposited data

Results flagged for a closer look

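Control replicate 3 stood apart from the other 3 control arrays in 3 genes. It read 12.79 for Mvk, against 11.98 to 12.05 on the others, 10.37 for Dhcr7, against 11.30 to 11.47, and 9.69 for Scd1, against 12.56 to 12.93. In each, its gap to the nearest array divided by the range of the 4 values (0.922, 0.845 and 0.887) was above the 95% critical value that Dixon's test sets for 4 arrays. Of 68 groups of 4 arrays tested in the 34 genes, these 3 passed, while chance passes about 1 in 20. Without that array Dhcr7 was still lower and called.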

How the results depend on the processing

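The counts of called genes depended on the normalization and on 1 array. Against 4 higher and 3 lower genes (7 in all) as reported, a shift to the 75th percentile gave 13 higher of 16 called, cyclic loess 12 of 16, the values of the authors' series table also 12 of 16, no masking of dim spots 11 higher and 2 lower of 13, normexp 6 of 10, and a robust trended prior 6 of 10. The methods' t-test gave 3 higher and 1 lower, 4 in all, the mean of all tested probes 2 higher and 4 lower, 6 in all, plain or centred, and the slide row block 3 higher and 2 lower, 5 in all. Leaving out each array gave 5 to 11 called genes, 3 to 7 higher and 2 to 4 lower. The highest counts came without silenced replicate 4, which added Acss2, Insig2, Mvk and Npc2.

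Over all probes, 6642 were called as reported (1373 higher, 5269 lower). The 75th percentile gave 11157 (4455 higher), cyclic loess 10674 (5416 higher), the series table's values 9778 (5009 higher) and no masking 9777 (4990 higher). Normexp gave 7006 (1576 higher) and a robust trended prior 7506 (1855 higher). The slide row block gave 3106 (534 higher, 2572 lower) and the t-test 3420 (566 higher, 2854 lower). For the mean of probes and the brightest probe in controls, no share over the array is given here. Leaving out each array gave 3709 to 8758 called, 659 to 3654 higher and 3018 to 5830 lower. Pvt1 changed by -3.12 to -2.69 when arrays were left out.

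Lpin1 was called in all 21 alternatives, Srebf2 and Dhcr7 in 20 (not by the t-test), Tm7sf2 in 20 (not by the mean of probes), Acacb in 19 of 21 (not at the probe nearest the 3′ end, which is also its brightest in controls), Hsd17b7 in 16 and Mvd in 12 of 21. Without negative control replicate 1, Hsd17b7 was lost, without replicates 2 or 3 Mvd, and without replicate 4 both; without silenced replicates 1 or 3 Mvd was lost. Acacb could not be tested with only spots well above background. Genes that were not called changed sign. These were Srebf1 (0.065 by the 75th percentile, 0.016 by loess), Insig1 (0.34 by loess, 0.28 by the series table, 0.28 without masking), Hmgcs1 (-0.0080 with the row block), Fdft1 (0.19, 0.13, 0.071 and 0.091 by the 75th percentile, loess, the series table and no masking), Ggps1 (0.084, 0.10 and 0.10 by loess, the series table and no masking) and Stard4 (-0.000102 with only spots well above background). Because a dim probe without a value on 1 array shifts that array's plain mean, each probe was centred on the middle of its group means before averaging, a setting chosen after seeing the data, as was the brightest probe in controls (3 higher, 3 lower). With the centred mean the signs turned for Hmgcs1 (-1.16, limma adjusted p 0.00803), Pmvk (-0.087), Ggps1 (0.034), Lss (-0.33), Cyp51 (-0.44), Nsdhl (-0.43), Stard4 (-0.080), Acly (-0.37) and Acss2 (-0.33). The value for Hmgcs1 includes its dim probe, for which no silenced value stood well above background, so it is not a measured size. With the probe nearest the 3′ end Lss was -0.18. The causes were not tested. When arrays were left out, Insig1 ranged from -0.44 to 0.16, Hmgcs1 from -0.090 to 0.28, Pmvk from -0.048 to 0.22, Fdft1 from -0.18 to 0.016, Ggps1 from -0.34 to 0.021, Sc5d from -0.61 to 0.17, Stard4 from -0.14 to 0.26 and Fasn from -0.048 to 0.14.

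Same-numbered arrays of the groups deviated with correlations of -0.04, 0.19, 0.22 and 0.06, so the numbers were not taken to pair the cultures. With the replicate number as a block, 7 genes were called (5 higher, 2 lower) and 5017 of all probes (1023 higher, 3994 lower). Acacb's representing probe and second probes of Hmgcs1 and Lpin1, dim in 1 group, have only a bound.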
